A study of Mus musculus with 24 samples.

Results

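The 8 genes Atm, Chek1, H2ax, Cadm1, Sdhd, Kmt2a, Cbl and Zbtb16 lie on mouse Chr 9 in a stretch that is syntenic with human 11q, an arm that is often lost in neuroblastoma. They were chosen as known genes of that stretch, with earlier results of these data known. They make up 8 of the 1209 protein-coding genes of Chr 9 and of the 20600 protein-coding genes of the autosomes. Their copy number was read from shallow whole genome sequencing (sWGS) segments of murine adrenal glands and neuroblastoma tumours, given as log2 ratio to adrenal glands of wildtype animals. The comparisons ask whether these genes lose copies in tumours, and whether a change is limited to the 11q-syntenic stretch or shared with the rest of Chr 9.

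Segment values were used for 21 samples. The 5 AGM samples are adrenal glands of animals labelled MYCN fl/wt, CRE +. The 8 TI samples are tumours of IGF2BP1 animals that are CRE +, of which replicate 1 is labelled IGF2BP1 +/- and all others IGF2BP1 +/+. The 8 TIM samples are tumours labelled IMP1/MYCN, CRE +, where IMP1 is another name of IGF2BP1, an RNA-binding protein. The reference is formed by 3 wildtype adrenal glands (AG) that are CRE - and were not given segment values. All transgenes sit at Rosa26 and depend on Cre under the promoter of Dbh, a gene of sympathoadrenal cells, so they are active only in cells that have expressed Dbh and in their progeny. TI replicate 6 and TIM replicates 1 and 5 came from the adrenal gland. The labels used here give no age. In the study, MYCN animals were culled later than homozygous IGF2BP1 animals, and IGF2BP1/MYCN animals had a shorter median survival than the latter. Age thus differed with group and cannot be told apart from it. DNA copy number cannot check the labelled tissue against marker genes.

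ATM is the kinase that senses DNA double-strand breaks, and CHEK1 is the checkpoint kinase that acts mainly after ATR at stalled replication forks. H2AX is the histone variant that ATM phosphorylates around a break, which marks the site for repair proteins. In human neuroblastoma, loss of 11q removes 1 copy of these genes together with many neighbours, and it is mostly seen in tumours without MYCN amplification.

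In GRCm39 the members run in the order Chek1, Cbl, H2ax, Kmt2a, Cadm1, Zbtb16, Sdhd and Atm, from chr9:36614487 to chr9:53448236. This member span of 16.83 Mb overlaps 271 protein-coding genes. Chek1 stands apart at its start (chr9:36614487-36638361, minus strand), with a gap of 7.42 Mb to Cbl (chr9:44054273-44145562, minus strand). H2ax is the shortest member with 1.4 kb (chr9:44245991-44247374, plus strand) and Cadm1 the longest with 332.1 kb (chr9:47441471-47773576, plus strand). Kmt2a (chr9:44714652-44792621), Zbtb16 (chr9:48563141-48748664) and Sdhd (chr9:50507642-50515195) are on the minus strand. Atm closes the span (chr9:53348097-53448236, minus strand).

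Atm is arranged head to head with Npat, a regulator of histone gene transcription, so that any segment covering one start covers the other. Of the members, 5 had a promoter window in the RefSeq table (250 bases before to 50 after the start), made on GRCm38.p6 and found here by exact match in GRCm39. The windows of Atm and Npat share 125 bases. The windows of Atm (chr9:53447922-53448221, minus strand) and Chek1 (chr9:36637905-36638204, minus strand) are shown because these kinases close the span on either side. Capitals mark the motifs GGGCGG (a GC box), CCAAT and CACGTG (an E-box that MYC proteins can bind) on either strand, which do not overlap in these windows.
Atm: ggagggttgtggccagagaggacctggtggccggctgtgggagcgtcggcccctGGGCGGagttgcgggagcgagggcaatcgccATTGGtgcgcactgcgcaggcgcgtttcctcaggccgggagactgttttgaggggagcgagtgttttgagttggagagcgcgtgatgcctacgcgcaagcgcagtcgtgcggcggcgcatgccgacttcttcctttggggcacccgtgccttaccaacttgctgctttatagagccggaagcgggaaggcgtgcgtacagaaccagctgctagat
Chek1: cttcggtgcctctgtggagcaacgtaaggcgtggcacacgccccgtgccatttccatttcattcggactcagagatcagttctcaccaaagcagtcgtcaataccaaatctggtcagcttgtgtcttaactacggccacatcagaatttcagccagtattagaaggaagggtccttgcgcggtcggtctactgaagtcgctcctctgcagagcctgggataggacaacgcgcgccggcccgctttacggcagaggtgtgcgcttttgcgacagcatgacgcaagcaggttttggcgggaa
GGGCGG was found in the windows of 4 of 5 members (Atm, Cbl, Kmt2a and Sdhd) and in 35.7% of the 32851 promoter windows of that length in the table. CCAAT was found in 1 of 5 members, Atm, and in 37.4% of all windows. CACGTG was found in 0 of 5 members and in 7.15% of all windows, which says only that these letters are not in these windows.

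The member span also contains microRNA genes, small regulatory RNAs whose seed (bases 2 to 8 of the mature strand, in capitals) pairs with target mRNAs. Mature strands of miR-34b and miR-34c, known as p53 targets, and of the miR-100 and miR-125b cluster are shown because they share the segments of the members described below. Sequences are from RefSeq (GRCm38.p6), and each was found by exact match in Chr 9 of GRCm39.
miR-34b-5p: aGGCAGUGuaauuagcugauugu
miR-34b-3p: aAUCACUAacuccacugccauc
miR-34c-3p: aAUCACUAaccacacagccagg
miR-100-5p: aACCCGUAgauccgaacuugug
miR-125b-5p: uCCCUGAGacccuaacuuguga
The seed AUCACUA is common to miR-34b-3p and miR-34c-3p, whereas the remaining strands have a seed each. Mir34b and Mir34c lie between Sdhd and Atm, and Mir100 and Mir125b-1 between Chek1 and Cbl.

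The members were below the level of wildtype adrenal glands in most TI tumours, and by segment medians they stayed above the loss threshold of -0.4. The value of the member span is the length-weighted mean of the segment medians across it. In TI replicates 1 to 8 it was -0.15, -0.049, -0.21, -0.34, -0.038, 0.015, -0.30 and -0.095. At 2 copies for a value of 0, this equals 1.80, 1.93, 1.73, 1.58, 1.95, 2.02, 1.62 and 1.87 copies. TI replicates 4 and 7 were lowest, and TI replicate 6, labelled as a tumour of the adrenal gland, was the one TI sample without a value below 0. A complete loss of 1 copy in all cells would give -1. In bulk DNA a value between 0 and -1 cannot tell a loss in some cells from a smaller loss in all, nor from admixed normal tissue.

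TIM tumours did not show this shift. Their member span lay at 0.0085, 0.013, 0.017, 0.010, 0.013, 0.027, 0.024 and 0.00044 in replicates 1, 4, 5, 7, 8, 9, 11 and 12. In AGM replicates 1 to 5 the values were 0.0132, 0.0129, 0.0139, 0.0129 and 0.0123. The TIM values thus spread on both sides of AGM, and all 13 samples of these groups were above 7 of 8 TI tumours.

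The group means were -0.15 ± 0.13 (SD, n = 8) in TI, 0.014 ± 0.0084 (SD, n = 8) in TIM and 0.0130 ± 0.00059 (SD, n = 5) in AGM. TI was lower than TIM in 59 of 64 pairs of tumours, with medians of -0.12 and 0.013 (exact permutation test of the rank sum, two-sided, p = 0.00295, adjusted p = 0.00886 over 3 comparisons). Against AGM, the TI sample was the lower one in 35 of 40 pairs (two-sided exact permutation test, p = 0.0295 and 0.0443 after adjustment). The latter comparison rests on few samples, since leaving out any AGM replicate gave an adjusted p of 0.0727, and leaving out any TI replicate but 6 gave 0.0720 (exact permutation tests). Without TI replicate 6 it was 0.00379. TIM and AGM were not distinguishable (exact permutation p = 0.833, adjusted p = 0.833), and their medians differed by 0.00038. The labels do not say that samples came from separate litters, and the study found more tumours than animals among IGF2BP1/MYCN mice. P-values thus measure the spread between these samples.

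**Figure D1:**
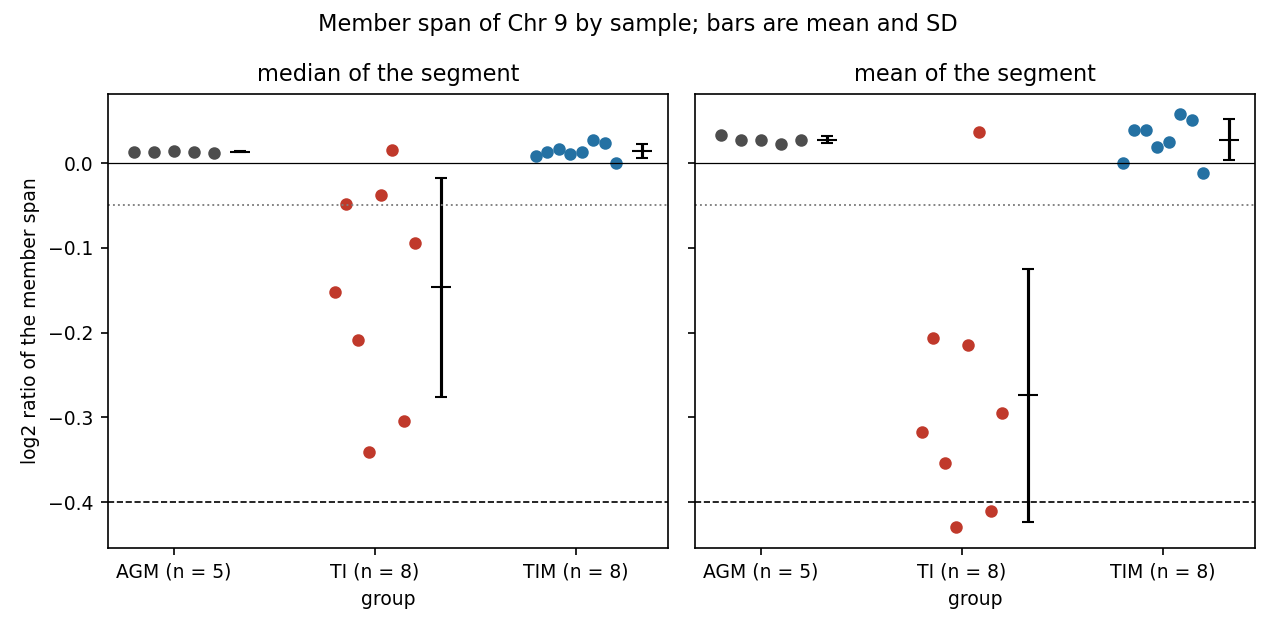
Log2 ratio of the member span by group, from segment medians (left) and segment means (right). Points are samples, bars are mean and SD, the dashed line is the loss threshold of -0.4 and the dotted line the shift threshold of -0.05. By the median, TI values run from -0.34 to 0.015 and TIM values from 0.00044 to 0.027.

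A shift was counted at a log2 ratio of -0.05 or below, and a loss at -0.4 or below, the threshold of the study. The limit of -0.05 had been used before on these data. The member span was shifted in 5 of 8 TI tumours but in 0 of 8 TIM tumours (two-sided Fisher's exact test, p = 0.0256). All 5 lay between both thresholds. TI replicate 8 was the tumour nearest inside the shift threshold at -0.095, and TI replicates 2 and 5 were just outside at -0.049 and -0.038. At a threshold of -0.1 the counts were 4 and 0 tumours (Fisher's exact test, p = 0.0769), and at -0.2 they were 3 and 0 (Fisher's exact test, p = 0.2). By segment medians a loss of the member span was found in 0 of 16 tumours, where Fisher's exact test can only give p = 1. By segment means, given below, the count in TI was 2. The study names Chr 9 among the main sites of chromosomal deletions in TI tumours.

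The mean of a segment gave lower values than its median. In TI replicates 1 to 8 the mean log2 ratio of the member span was -0.32, -0.21, -0.35, -0.43, -0.22, 0.036, -0.41 and -0.30. It was below the median by 0.089 to 0.20 in the 7 TI tumours with a negative median, whereas the difference ranged from -0.012 to 0.031 in TIM and from 0.0091 to 0.020 in AGM. By the mean, 7 TI tumours and 0 TIM tumours were shifted (p = 0.0014 by Fisher's exact test), and TI replicates 4 and 7 passed the loss threshold. The medians of TI and TIM differed by -0.34 on this scale (exact permutation p = 0.00186, adjusted p = 0.00559). On segments of at least 10 Mb of other autosomes, the lowest difference of mean minus median was -0.18, -0.18, -0.21 and -0.19 in TI replicates 1, 3, 5 and 7, further from 0 than that of the member span (-0.17, -0.14, -0.18 and -0.11). In TI replicates 2, 4 and 8 it was -0.061, -0.076 and -0.098, nearer to 0 than that of the member span (-0.16, -0.089 and -0.20).

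Among the genes of the break response, Atm had its lowest median log2 ratio at -0.34 in TI replicate 4, a median over TI of -0.12 and its highest value of 0.015 in TI replicate 6. TIM ranged from 0.0049 to 0.030 for Atm, so that all TIM tumours were above 7 TI tumours. Chek1 had its lowest value of -0.38 in TI replicate 3, with 1.54 copies, the lowest median of any member in any sample. H2ax was at -0.15 in the same tumour. Thus the DNA damage genes at both ends and in the middle of the span had 3 different levels in TI replicate 3, where Atm was at -0.26. In TI replicate 3 the means were -0.44 for Chek1, -0.32 for H2ax and -0.40 for Atm, and Chek1 alone was past the loss threshold by the mean there, as -0.3952 for Atm lay just outside.

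The remaining members followed H2ax or Atm. Cbl, a ubiquitin ligase for receptor tyrosine kinases, Kmt2a, a histone H3 lysine methyltransferase, Cadm1, a cell adhesion molecule, and Zbtb16, a transcriptional repressor also known as PLZF, shared 1 segment with H2ax in every sample. Their values in TI ranged from -0.34 to 0.015. Sdhd, a membrane subunit of succinate dehydrogenase and a paraganglioma gene, shared its segment with Atm in every sample. In 17 of 21 samples all 8 members had 1 value. The exceptions were TI replicate 3 with 3 levels and TIM replicates 9, 11 and 12 with 2 levels each, where Chek1 was at 0.015, 0.015 and 0.0028 and the other 7 members at 0.030, 0.018 and 0.0049.

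**Figure D2:**
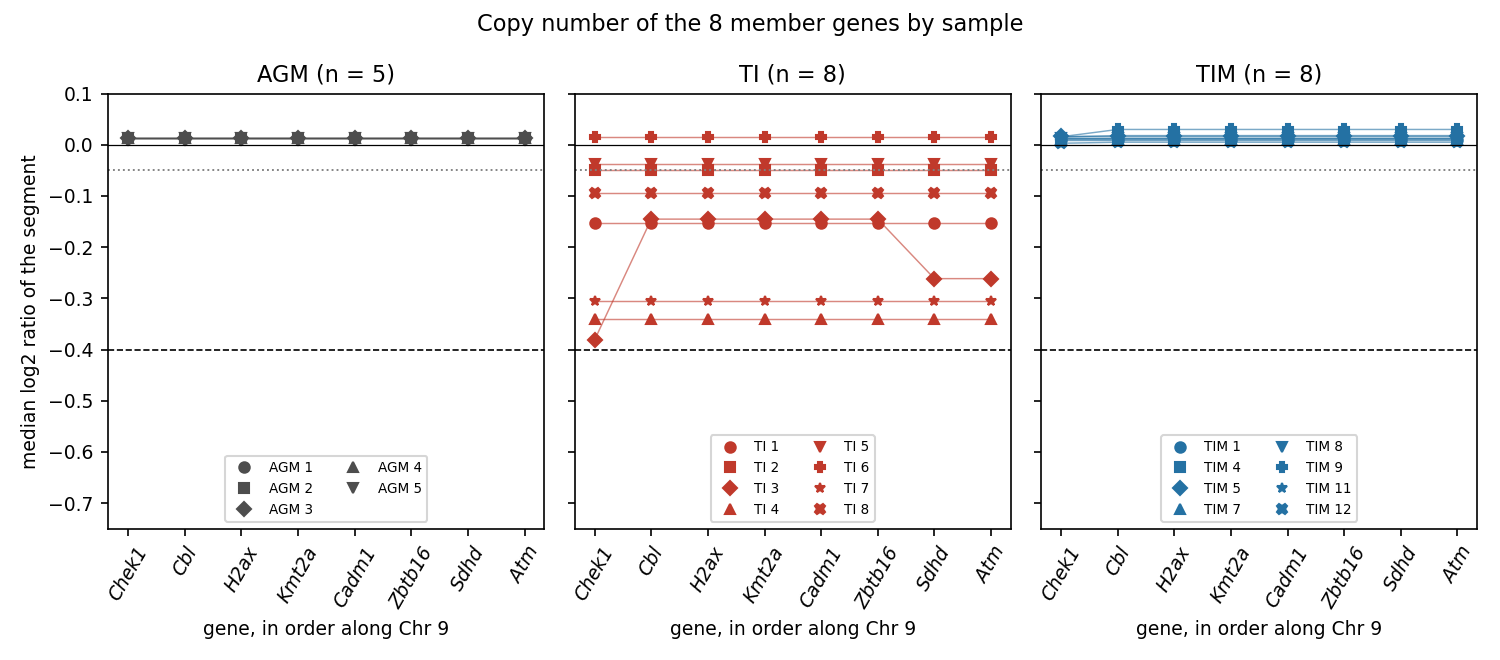
Median log2 ratio of the segment covering each member, by gene in chromosomal order and by sample, for AGM, TI and TIM. Dashed and dotted lines mark -0.4 and -0.05. The widest step between members is in TI replicate 3, where Chek1 is at -0.38, Cbl to Zbtb16 at -0.15 and Sdhd and Atm at -0.26.

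Each member was lower in TI than in TIM when all genes were tested. The difference of medians was -0.14 for Chek1, Sdhd and Atm and -0.13 for Cbl, H2ax, Kmt2a, Cadm1 and Zbtb16, with an exact permutation p of 0.00295 and an adjusted p of 0.0271 over 20600 genes for each. As genes of 1 segment share a value, these are not 8 independent results. Lower values in TI at an adjusted p under 0.05 were found for 10.8% of all genes, and for 1202 of the 1209 genes of Chr 9. The call of a member is thus that of its chromosome. Without the IGF2BP1 +/- tumour (TI replicate 1) the difference was -0.11 and the adjusted p 0.0524 for each member (exact permutation test). The share of all genes lower in TI then fell to 0.481% (99 genes), with 0 of the 1209 genes of Chr 9. This drop is not particular to the IGF2BP1 +/- tumour as far as the member span shows. For the span, leaving out any single TI replicate but 6 gave the same adjusted p of 0.0177 (exact permutation tests). The test over all genes was not repeated without any other single TI tumour.

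The same holds for counts of tumours. Every member was at -0.05 or below in at least 5 TI tumours, as were 7.38% of all genes and all 1209 genes of Chr 9. A loss by the median in at least 1 TI tumour was found for 0 of 8 members against 9.23% of all genes and 251 genes of Chr 9. A loss by the mean in at least 2 TI tumours was found for all 8 members against 9.33% of all genes, again with all 1209 genes of Chr 9. Chek1 was lost by the mean in 3 TI tumours and the other members in 2.

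Other genes of the 11q-syntenic stretch were read from the same segments. From a list of 32 genes, all 27 protein-coding genes were lower in TI than in TIM, as were 10.8% of all genes and 1202 of the 1209 genes of Chr 9, with a median difference of -0.14 (range -0.14 to -0.13) against -0.0045 over all genes. Without TI replicate 1, 0 of the 27 were called (exact permutation test, adjusted p = 0.0524 for each). The background then fell to 0.481% of all genes and 0 of the 1209 genes of Chr 9. They include Ncam1, a neural cell adhesion molecule, Thy1, a surface glycoprotein of neurons, Npat and Usp28, a deubiquitinase of the DNA damage response. Mir34b and Mir34c had the values of Sdhd and Atm, and Mir100 and Mir125b-1 those of H2ax in TI, with -0.26 and -0.15 in TI replicate 3.

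Focal events inside the span did not reach a member. In TIM replicate 11 a segment of 180 kb (chr9:40660001-40840000) was at 0.64, listed as 3.1 copies. It covers Hspa8, a constitutive heat shock protein 70 chaperone, and 3 further protein-coding genes, Clmp, Bsx and Jhy. In TIM replicate 12 a segment of 80 kb (chr9:38120001-38200000) was at -0.90, listed as 1.1 copies, and covers 4 olfactory receptor genes. Both were found in 1 sample each.

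Towards the centromere, 11q-syntenic genes were lower than the members in part of the tumours. The list holds Birc2 and Birc3, inhibitors of apoptosis, Yap1, the effector of Hippo signalling, Trpc6, Mmp13, Sesn3 and Mre11a, the nuclease of the complex that recruits ATM to breaks. In TI replicates 1 to 8 Mre11a had median log2 ratios of -0.15, -0.14, -0.63, -0.34, -0.038, 0.015, -0.30 and -0.31. Against Atm it was thus lower in TI replicates 2, 3 and 8, equal in the other 5, and past the loss threshold in TI replicate 3. All 7 genes of the list were lower in TI than in TIM, as were 10.8% of all genes and 1202 of the 1209 genes of Chr 9, with a difference of medians of -0.23 and an adjusted p of 0.0483 over all genes (exact permutation test). Without TI replicate 1, 0 of 7 were called, at an adjusted p of 0.095 by the same exact test. Lower values were then found for 0.481% of all genes and 0 of the 1209 genes of Chr 9.

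The distal part of Chr 9, from Cyp19a1 to the end of the chromosome (70.29 Mb, 678 protein-coding genes), lies outside 11q synteny. In TI replicates 1 to 8 its length-weighted median log2 ratio was -0.15, -0.065, -0.35, -0.34, -0.038, 0.015, -0.33 and -0.14. The member span equalled it in 4 TI tumours, in which 1 segment covers both, and was higher in the other 4 (replicates 2, 3, 7 and 8). It was lower in 0 of 8. The mean difference between span and distal part was 0.028 ± 0.047 (SD, n = 8) in TI (exact sign-flip permutation test, p = 0.125, adjusted p = 0.3125) and 0.0026 ± 0.0050 (SD, n = 8) in TIM (exact permutation p = 0.3125, adjusted p = 0.3125). Single tumours carried much of these means, which were 0.012 in TI without replicate 3, and 0.0016 and 0.0013 in TIM without replicate 9 or 11. The difference did not itself differ between TI and TIM beyond its spread (exact permutation p = 0.308, adjusted p = 0.3125). With 4 differences of 0, the test in TI cannot give a smaller p. By segment means the difference was 0.018 ± 0.025 (SD, n = 8) in TI and 0.014 ± 0.017 (SD, n = 8) in TIM. Exact sign-flip tests then gave p = 0.125 in TI and 0.0625 in TIM, with an adjusted p of 0.1875 for both.

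The member span was thus not lower than the distal part in any TI tumour. This does not extend to the proximal 11q-syntenic genes, as Mre11a was below the distal part in TI replicates 2, 3 and 8. Chr 9 as a whole had the lowest length-weighted median log2 ratio of the 19 autosomes in 4 of 8 TI tumours (replicates 1 to 4), and was among the 2 lowest in 6. In TIM and AGM it was the lowest in 0 of 13.

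**Figure D3:**
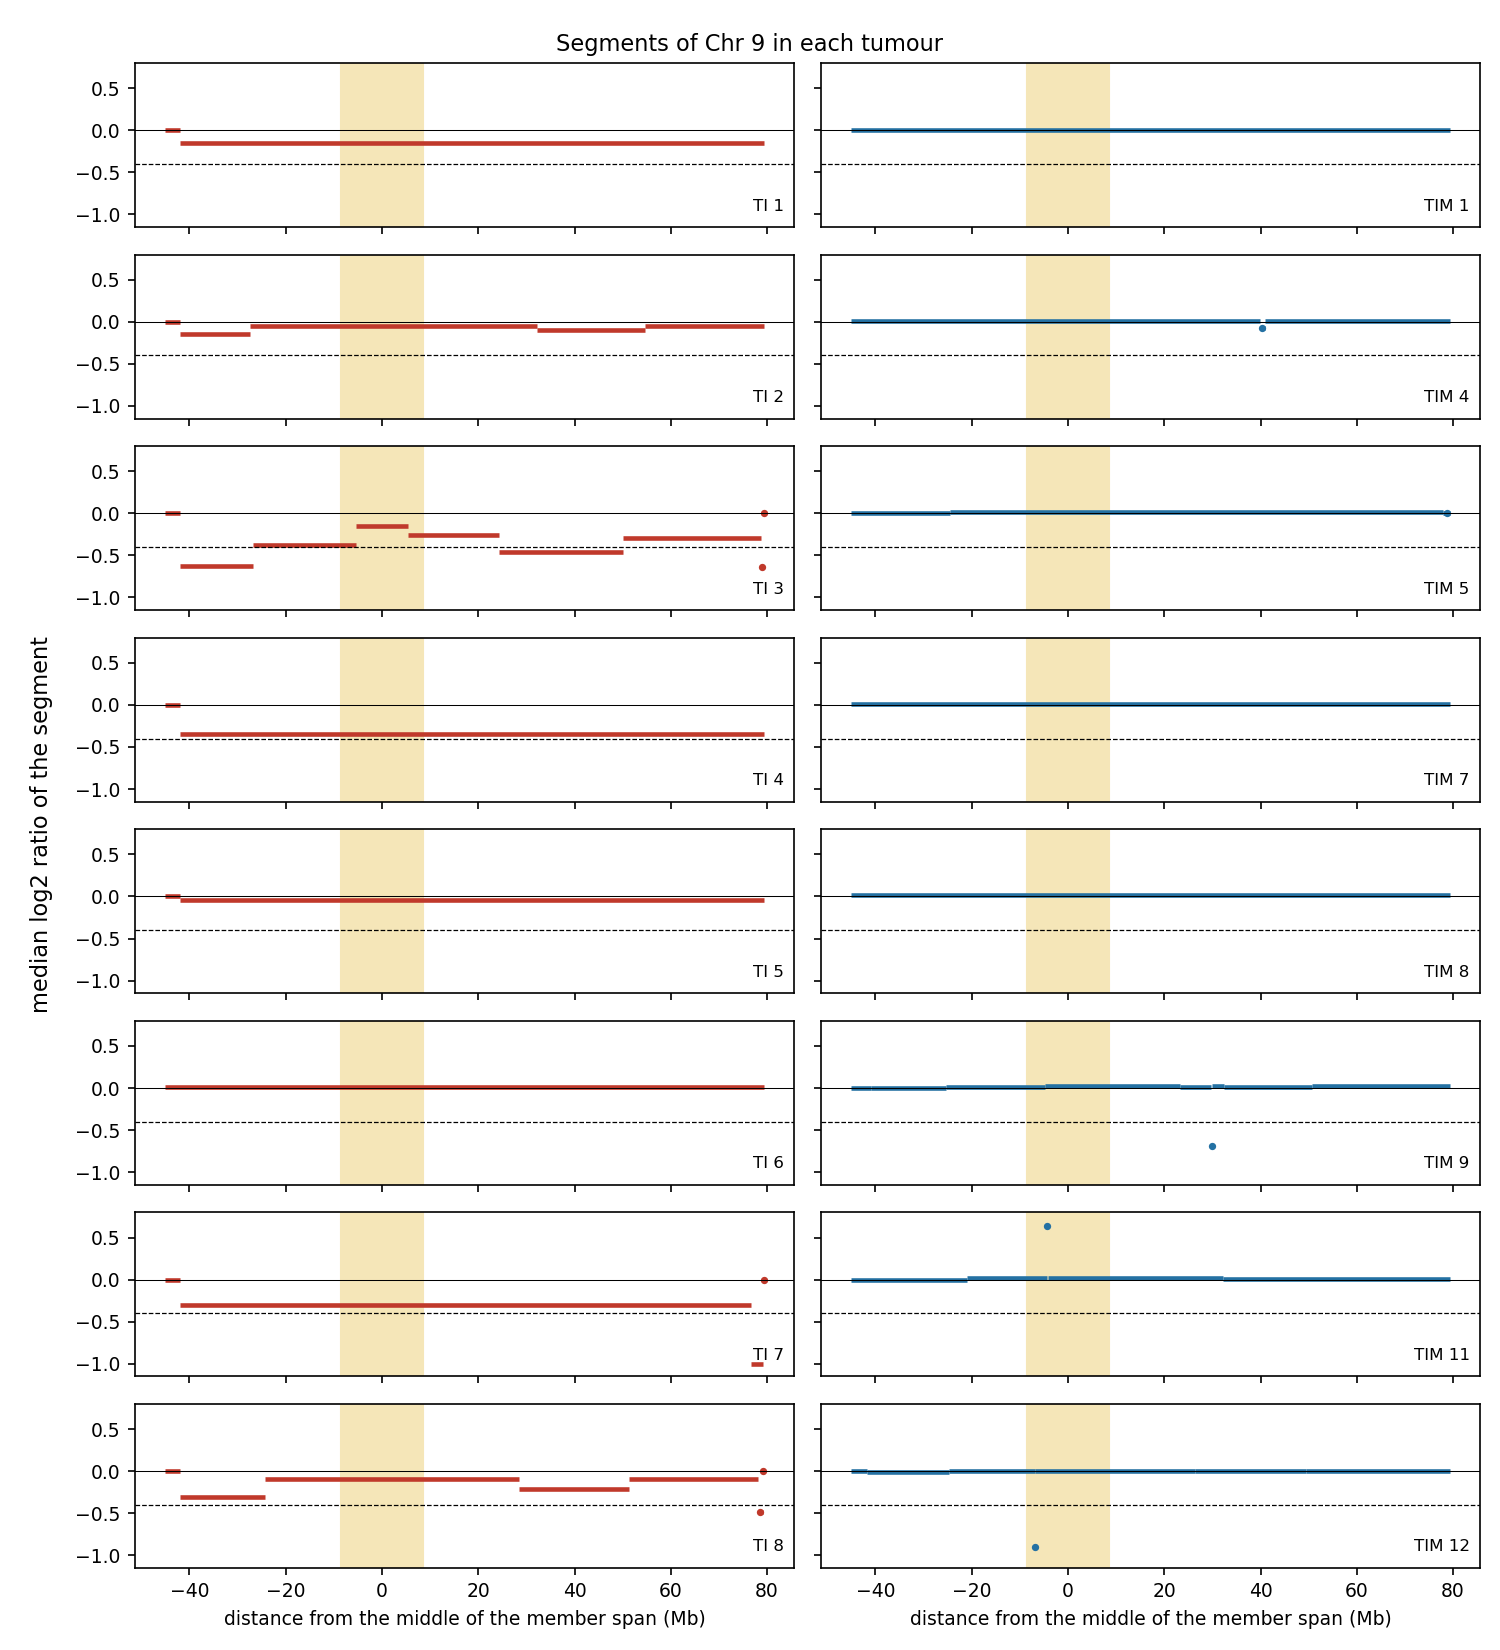
Segments of Chr 9 in the 8 TI (left) and 8 TIM (right) tumours, as median log2 ratio against distance in Mb from the middle of the member span. The shaded band is the member span, dots mark segments under 1.5 Mb and the dashed line is -0.4. In TI replicates 1, 4, 5 and 7 one level covers the span and nearly all of the chromosome.

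**Figure D4:**
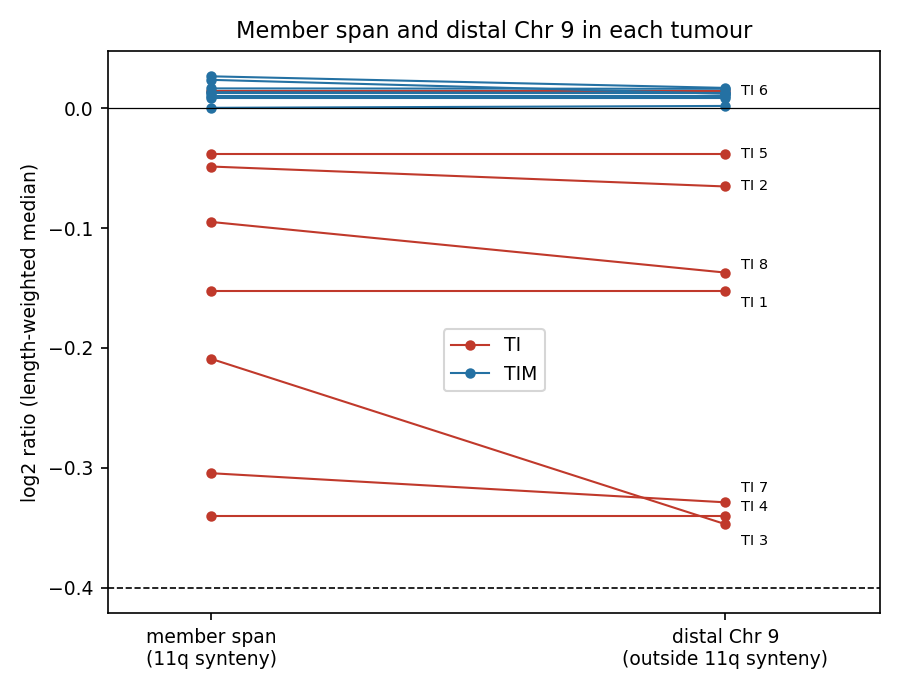
Log2 ratio of the member span and of distal Chr 9, joined by a line for each tumour. The dashed line is -0.4. No line of a TI tumour rises to the right, and TI replicate 3 falls furthest, from -0.21 to -0.35.

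DNA damage genes of Chr 9 outside 11q synteny were also lower in TI. The list of 7 genes includes Atr, the kinase upstream of CHEK1, its partners Atrip and Topbp1, the histone methyltransferase Setd2, the phosphatase Cdc25a and Rad54l2. All 7 were lower in TI than in TIM, as were 10.8% of all genes and 1202 of the 1209 genes of Chr 9. Atr had a TI range from -0.34 to 0.015 and a difference of medians of -0.19, and the other 6 genes had a difference of -0.13, each with an adjusted p of 0.033 (exact permutation test). Without TI replicate 1, 0 of 7 were called (adjusted p = 0.0656, exact permutation test). The share of all genes lower in TI was then 0.481%, with 0 of the 1209 genes of Chr 9.

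Of 22 DNA damage genes on other autosomes, 2 were lower and 3 higher in TI than in TIM at an adjusted p under 0.05, with a median difference of -0.0054. Over all genes 10.8% were lower and 10.7% higher, so that these counts are near the background. Without TI replicate 1, only Nbn was still called, with a smaller difference of -0.0075 and an adjusted p of 0.0467 (exact permutation test). Brca1 then kept a difference of 0.59 but had an adjusted p of 0.0512 (exact permutation test). With all tumours, Nbn, the partner of MRE11 (Chr 4), was lower with a difference of -0.021. Rad17 (Chr 13), which loads the checkpoint clamp, was lower with -0.013. Brca1 (Chr 11), a homologous recombination gene, was higher with a difference of 0.58, Rnf8 (Chr 17), a ubiquitin ligase at breaks, with 0.18, and Mdc1 (Chr 17), the reader of phosphorylated H2AX, with 0.15. Trp53 (Chr 11) had a difference of 0.0054 and an adjusted p of 0.838 (exact permutation test). Chek2 (Chr 5), the kinase downstream of ATM, had a difference of -0.0054 and an adjusted p of 0.317 (exact permutation test).

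For the other subunits of succinate dehydrogenase, 1 of 3 was lower, Sdha (Chr 13), with a difference of -0.014, against 10.8% of all genes and 341 of the 820 genes of Chr 13. Without TI replicate 1 it was not called (exact permutation test, adjusted p = 0.095). Sdhb (Chr 4) had deeper values in single tumours than Sdhd, at -0.996 in TI replicate 4 and -0.91 in TI replicate 6, but a difference of -0.070 and an adjusted p of 0.101 (exact permutation test). TI replicate 4 thus combined -0.996 at Sdhb with -0.34 at Sdhd, and TI replicate 6 combined -0.91 with 0.015.

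By mean absolute difference from the member span over 16 tumours, the genes of these lists on other autosomes most alike were Rnf168 (Chr 16, 0.047), Rad9a (Chr 19, 0.050) and Prkdc (Chr 16, 0.055). Rnf168, a ubiquitin ligase at breaks, was at -0.19 in TI replicate 3 and -0.30 in TI replicate 7 but at 0 in TI replicate 4, where Atm was at -0.34. The likeness thus includes the TIM tumours, in which most genes lie near 0.

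Several technical quantities moved with these values. The sample titles have the prefixes SH and AGH, which the labels do not explain. All TIM and AGM samples are AGH, 7 of 8 TI and all 3 reference samples are SH, so that prefix and group cannot be told apart for most of the comparison. Within AGH, the only TI tumour (replicate 8) was at -0.095 and all 8 TIM tumours lay between 0.00044 and 0.027, and 1 tumour against 8 allows no test at the threshold used. Within SH, the 7 TI tumours ranged from -0.34 to 0.015, with no TIM tumour to compare.

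The baseline also differed. The length-weighted median over all autosomes was -0.027 in TI replicate 5 and between 0.0042 and 0.025 in the other TI tumours, against 0.000025 to 0.018 in TIM. After centring each sample on it, the member span of TI replicate 5 was at -0.010 and that of TI replicate 6 at -0.010, whereas TI replicates 1 to 4, 7 and 8 stayed at or below -0.056. On this scale 6 TI tumours and 0 TIM tumours were shifted (p = 0.00699 by Fisher's exact test), and TI was lower than TIM with an adjusted p of 0.000466 (exact permutation test).

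Finally, the levels within Chr 9 were ordered much like base composition. Over segments of at least 10 Mb, the order of the median log2 ratio and that of GC content had a Spearman correlation of 0.8 in TI replicate 2 (4 segments), 0.94 in TI replicate 3 (6 segments) and 1 in TI replicate 8 (4 segments). It was 1, 0.8 and 0.9 in TIM replicates 9, 11 and 12 (5, 4 and 5 segments). In TI replicate 3 the segment of Cbl to Zbtb16 had 45.4% GC and was at -0.15, whereas that of Mre11a had 39.7% and was at -0.63. Segments of a sample share a library, and the part of GC content in the levels within Chr 9 was not tested. The member span and the distal part had 43.7% and 43.3% GC.

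Segment ends also recurred between tumours. The boundary between Chek1 and Cbl in TI replicate 3 (chr9:39660001) lay 520 kb from one in TIM replicate 9 and within 2 Mb of boundaries in 3 TIM tumours. By contrast, the boundary 0.13 Mb before Sdhd in TI replicate 3 (chr9:50380001) had no other sample's boundary within 2 Mb. In this tumour the step separates Zbtb16 at -0.15 from Sdhd at -0.26.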

How the data were processed

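Shallow whole genome sequencing (sWGS) of 24 samples was described, of which 21 have segment values. Per the study's methods and the submitters' processing notes, reads were trimmed with cutadapt 2.8, aligned to mm39 with HISAT2 2.1.0, handled with SAMtools 1.10, and copy number was called with cn.MOPS against wildtype adrenal glands. Each deposited segment has a log2 ratio as median and as mean, and a copy number that equalled 2 × 2 to the power of the median, to 1 decimal, in all 1485 segments. Other deposited columns hold segment positions, on a 20 kb grid. Libraries are shallow, and depth per library was not analysed here, so no counting interval is given. The autosome length of Chr 9 equalled that of GRCm39, and genes were placed by GENCODE M39. No pair of the 21 samples was identical (0 of 210 pairs).

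A gene took the segment with the largest overlap. Groups were compared by two-sided exact permutation tests of the rank sum, span and distal Chr 9 by exact sign-flip tests, both with Benjamini-Hochberg adjustment over 3 comparisons, counts of tumours by Fisher's exact test, and 20600 genes with adjustment over all of them. Named genes are the 8 members, the fixed lists and the 3 genes of other autosomes most alike. Members and lists were chosen with earlier results of these data known. Alternatives were the mean of a segment, centring, other extents of the span and of the region compared, other thresholds, a difference of means, a replicate block, the lowest segment over a gene, all annotated genes, subsets of tumours and leaving out each sample. A span from Ncapd3 to Npat was added after seeing the data. The tests were tested on simulated data. Software was scipy 1.17.1, numpy 2.4.6, pandas 2.3.3, Python 3.11.15 and, for plots, matplotlib 3.10.9.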

Additional observations from a re-analysis of the deposited data

Results flagged for a closer look

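The difference between member span and distal Chr 9 in TI replicate 3 stood far from that of the other TI tumours, at 0.138 against 0.042 in the next tumour, TI replicate 8. Of 12 sets of a group and a measure examined in this way, this was the only one with such a sample. The limit used is Dixon's, which about 1 in 20 groups of normally distributed values would pass by chance, and 4 of the 8 values here were 0, so that this rate need not apply. This tumour had 118 segments over the autosomes, where TI ranged from 55 to 118, and 9 segments on Chr 9. By segment means the difference was 0.074 in TI replicate 3 and 0.026 in TI replicate 8.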

How the results depend on the processing

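Of 198 repeated results, 165 stayed on the same side of the threshold with the same sign or, for the number of genes differing, were of similar size. Not all alternatives are distinct. IGF2BP1 +/+ tumours only equals leaving out TI replicate 1, and SH tumours only equals leaving out TI replicate 8. TI against TIM for the member span held in 24 of 25 alternatives, with adjusted p from 0.000932 to 0.0177 when single tumours were left out. TI against AGM was lost in 15 of 22, with 0.0720 for IGF2BP1 +/+ tumours only and for SH tumours only, and 0.00379 to 0.0727 when samples were left out. Paired by replicate number (replicate block), TI against TIM and TI against AGM each gave an adjusted p of 0.0938. With 5 pairs the exact sign-flip p cannot go below 0.0625, and numbers only name samples, as deviations of TI and TIM pairs correlated from -0.37 to 0.40 across genes. The shift count gave p = 0.0769 at -0.1 and 0.2 at -0.2 (Fisher's exact test). The difference between span and distal Chr 9, TI against TIM, changed sign for SH tumours only (exact permutation test, adjusted p = 0.518) and without TI replicates 2, 3, 7 or 8, with 0.277 to 0.518 when tumours were left out, and passed the threshold in 0 of 24. All 8 members lost their call for IGF2BP1 +/+ tumours only and kept it in the other 4 alternatives. Genes differing between TI and TIM numbered 4437 (2234 lower, 2203 higher), 1028 for IGF2BP1 +/+ tumours only (99 lower, 929 higher), 3999 for tumours outside the adrenal gland only (2685 lower, 1314 higher) and 15574 when all annotated genes were tested. Depth was not analysed here, and in 17 of 21 samples all 8 members rest on 1 level.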
